A study of Mus musculus with 6 samples.

Results

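Prostaglandin synthesis and breakdown was followed through 10 genes in epididymal fat of the mouse (eWAT), a visceral white adipose depot beside the epididymis. The genes were taken from a list by function: the cyclooxygenases Ptgs1 and Ptgs2, the prostaglandin D synthases Ptgds and Hpgds, the prostaglandin E synthases Ptges, Ptges2 and Ptges3, the prostacyclin synthase Ptgis, the thromboxane synthase Tbxas1 and the prostaglandin-degrading enzyme Hpgd. They are 10 of 54356 genes with a summed value, and all 10 passed the low-count filter that left 17852 genes for the test. The set was chosen by function with the genes' summed counts in cold and control libraries already known. The difference between those groups is therefore given for the 10 genes as a description and supports nothing.

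The study compared 6 libraries of polyadenylated RNA, each from a separate male wild type C57BL/6N mouse of 20 weeks. The 3 cold libraries carry mouse numbers 7, 12 and 16 and the 3 control libraries, labelled ctrl, carry 5, 6 and 10. The protocol text, the same for all 6 mice, describes 24 h alone in a cage at 4 °C, and general housing is given as 22 to 24 °C. The sources used here do not say how the controls were caged during those 24 h.

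Prostanoids are short-lived lipid signals made from arachidonic acid. Phospholipases release the acid from membranes, a cyclooxygenase turns it into prostaglandin H2, and a terminal synthase makes prostaglandin D2, E2 or F2alpha, prostacyclin or thromboxane, which act on G protein-coupled receptors on nearby cells. In white fat prostaglandin E2 is known to restrain lipolysis through the receptor EP3, and prostaglandins have been tied to adipocyte differentiation and to the recruitment of beige fat cells. Transcript levels show which enzymes could be made, not how much prostanoid was present.

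Total estimated counts ran from 19735167 to 28608052 per library. The fat cell markers Adipoq (2878.2 to 3390.6 TPM, a level scaled for transcript length and depth) and Plin1 (2135.7 to 2751.2 TPM) were high in all 6 libraries. Some libraries stood apart in markers of reproductive organs that lie against this fat pad. A list of 10 epididymis markers summed to 193 TPM in cold 7, against 0.586 to 1.71 TPM in the other libraries. Most of the sum in cold 7 came from Crisp1 at 169 TPM, with Adam7 at 13.6 TPM and Rnase9 at 8.21 TPM. A list of 6 seminal vesicle markers summed to 375 TPM in ctrl 10 and to at most 2.87 TPM elsewhere. A list of 8 epithelial markers summed to 16.1 to 56.1 TPM in controls and 130 to 209 TPM in the cold, with cold 7 the lowest cold library and ctrl 5 the highest control. Of these sums Krt19 alone gave 9.21 to 27.4 TPM in controls and 26.6 to 43.0 TPM in the cold.

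In control fat the 10 genes differed widely in TPM. Hpgd stood highest at 71.8 ± 6.75 TPM and Ptges3 next at 67.8 ± 3.28 TPM (SD, n = 3 each), and the control values of these neighbours overlapped. Ptges followed at 53.5 ± 9.23, Ptges2 at 32.3 ± 1.67, Ptgis at 31.8 ± 10.7, Ptgs1 at 15.5 ± 2.49 and Tbxas1 at 7.51 ± 1.04 TPM (SD, n = 3 each). Lowest were Hpgds at 3.26 ± 0.839, Ptgds at 3.07 ± 2.47 and Ptgs2 at 0.414 ± 0.203 TPM (SD, n = 3 each). Among neighbours in this order only Hpgd and Ptges3, Ptges2 and Ptgis, and Hpgds and Ptgds had overlapping control values. These sums take in every annotated transcript of a gene, and TPM gives a short noncoding transcript much weight. Over coding transcripts alone, a summing chosen after seeing the data, Ptges stood at 28.6 ± 6.77, Ptges2 at 7.13 ± 0.352, Ptgs1 at 10.8 ± 1.55 and Tbxas1 at 4.67 ± 1.36 TPM in controls (SD, n = 3 each), each lower than its sum by more than 1 SD. Ptges2 then lay below Ptgis and Ptgs1 in every control. By mean control TPM the breakdown enzyme Hpgd was highest and the inducible cyclooxygenase Ptgs2 lowest on both sums.

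**Figure D1:**
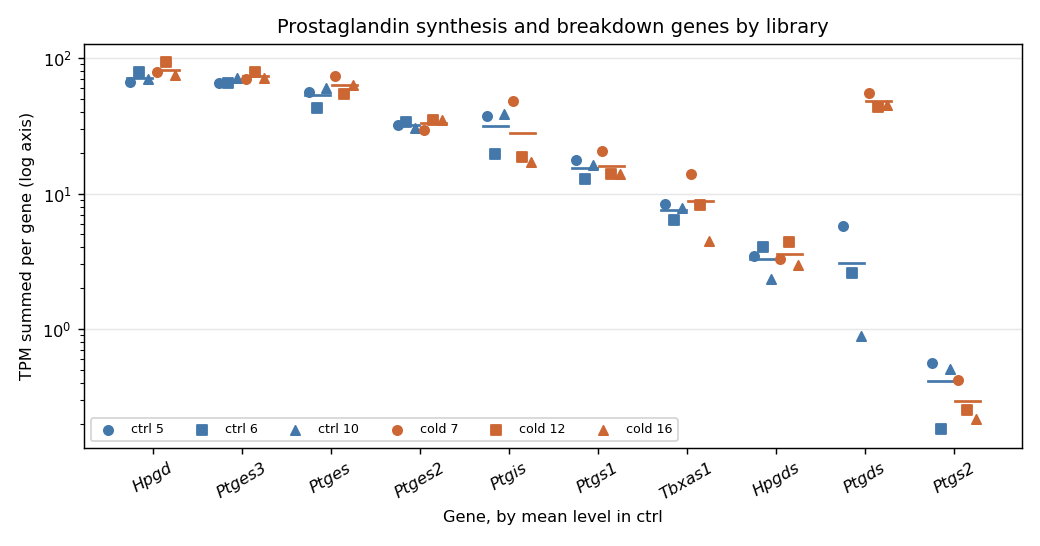
TPM per gene (log axis) for the 10 genes, ordered by their mean in ctrl; blue points are ctrl libraries, orange points cold libraries, and horizontal lines group means of 3. Ptgds lies at 0.881 to 5.75 TPM in ctrl and 43.6 to 55.6 TPM in the cold, while the groups of each of the other 9 genes overlap.

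The prostaglandin D synthase Ptgds was the gene of the set with by far the largest difference. Its locus lies on chromosome 2, 25466709 to 25470046, minus strand (GRCm38), and it encodes the lipocalin-type synthase, a secreted protein abundant in brain coverings and the male genital tract that both makes prostaglandin D2 and carries small lipids. It had 68, 27 and 9 counts in ctrl 5, ctrl 6 and ctrl 10 (exact 95% Poisson intervals 52.8 to 86.2, 17.8 to 39.3 and 4.12 to 17.1, which cover counting error only). In cold 7, cold 12 and cold 16 it had 569, 504 and 609 counts. In CPM, counts scaled to library size, this was 2.81, 1.21 and 0.462 against 24.9, 19.8 and 21.3 CPM. Every cold library stood above every control, and the 3 controls differed among themselves far more, in proportion, than the 3 cold libraries did.

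The fitted Ptgds difference was 3.84 on the log2 scale (SE 0.51). It was 3.74 without cold 7, the library richest in epididymal transcripts, 3.45 without ctrl 10, the one richest in seminal vesicle transcripts, and 4.69 without ctrl 5. Its adjusted p by edgeR was over 0.05 without ctrl 6 (0.119), ctrl 10 (0.0947), cold 12 (0.132) or cold 16 (0.0776). Ptgds was the 1 member of 10 past an adjusted p of 0.05 over all genes, where 2.89% of genes passed in either direction, and the 1 member whose groups did not overlap, which held for 23.8% of genes (12.7% with the cold higher). Nothing is read from these counts, because the contrast was known when the genes were listed. In these bulk samples, more cells of a type and more RNA per cell cannot be told apart.

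Ptgds transcripts begin at more than one place, and the stretch between the far and the near starts is shown because the cold counts were divided between both. The transcript with the far start begins at 25470046. The remaining coding transcripts begin at 25469842 and 25469749, and all 3 end at 25466709. The stretch shown, chr2:25469843-25469999 on the minus strand of GRCm38, is intron for the far transcript and lies upstream of the others. It comes from the RefSeq promoter table, which has an entry for 9 of the 10 genes. Capitals mark the E-box letters CANNTG, a 6-base pattern that reads the same on both strands.
Ptgds upstream stretch: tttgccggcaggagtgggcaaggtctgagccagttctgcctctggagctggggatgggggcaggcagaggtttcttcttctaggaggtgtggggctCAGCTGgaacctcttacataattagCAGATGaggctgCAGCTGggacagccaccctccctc
The 157 bases hold 3 such matches, CAGCTG at 25469898 to 25469903, CAGATG at 25469873 to 25469878 and CAGCTG at 25469861 to 25469866. Of 32851 RefSeq promoter windows of the same length and position, 50.8% hold at least 1 match and 4.27% hold 3 or more. Neither TGACG, the core letters of a cAMP response element (8.84% of windows, either strand), nor TATAAA (7.55%, either strand) is in this stretch. These are letter matches only. The bases just upstream of the start at 25469749 and those beyond the far start at 25470046 lie outside the stretch and were not searched.

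By Salmon's sharing of reads, the far-start transcript took 39.9, 41.4 and 40.8% of Ptgds counts in cold 7, cold 12 and cold 16. The transcript with the shorter leader took 44.8, 37.7 and 39.3%, and the one with the longer leader 8.8, 8.51 and 9.44%. A retained-intron transcript took 6.44, 12.4 and 10.4% in the cold and 26.8, 19.4 and 13.9% in ctrl 5, ctrl 6 and ctrl 10. The cold libraries therefore resembled each other in makeup as well as in level. In controls the split rested on too few reads to be read, with 9 counts in ctrl 10. The 3 coding transcripts also overlap in position and end at the same base, 25466709.

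**Figure D2:**
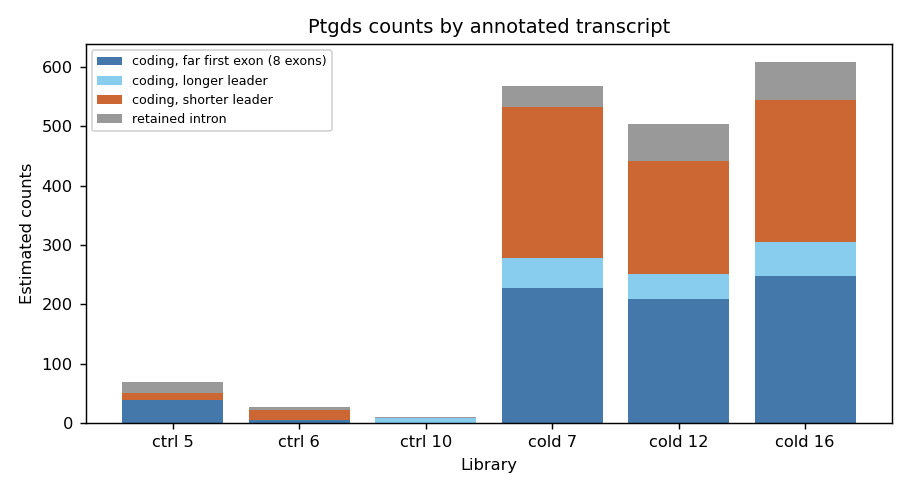
Estimated counts of Ptgds (vertical axis, from 0) in each library, stacked by annotated transcript. The 3 cold bars reach 504 to 609 counts with similar proportions, and the ctrl bars 9 to 68.

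Markers of epithelium moved with Ptgds across the groups. Of the 8 epithelial markers all were tested, 3 rose by edgeR (Prom2, Cdh1 and Cldn4; 7 called by DESeq2) and none fell, where 2.32% of all genes rose. Their median log2 fold change was 3.45 against -0.01 over all genes tested. Epcam, an adhesion molecule of epithelial cells named here after its values were seen, stood at 5.04, 0.729 and 0.315 TPM in ctrl 5, ctrl 6 and ctrl 10 and at 18.4, 38.7 and 36.0 TPM in cold 7, cold 12 and cold 16. Of 9 markers of multiciliated cells, 3 rose by edgeR (Rsph1, Tekt1 and Deup1; 4 called by DESeq2) and none fell (median 3.26). Their sum was 54.3 to 95.9 TPM in controls and 145 to 183 TPM in the cold, of which Tppp3, also found in other cells, gave 52.0 to 112 TPM. No marker of either list was at 0 in all libraries.

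The markers did not all rank the cold libraries alike. Ptgds was highest in cold 7 (55.6 TPM, against 43.6 and 44.9 in cold 12 and cold 16), where Foxj1, the master regulator of motile cilia, was lowest (11.4 TPM, against 43.7 and 37.3). Tppp3 (112 TPM, against 90 and 75.7), Deup1 (1.37, against 1.26 and 0.833) and the keratin Krt19 (43.0, against 27.1 and 26.6) were highest in cold 7, as Ptgds was. Of the 17 markers of both lists, cold 7 was the lowest cold library in 13 and the highest in these 3. Unlike Ptgds, Krt19 (27.4, 9.21 and 24.7 TPM in ctrl 5, ctrl 6 and ctrl 10) and Tppp3 (82.9, 52.0 and 83.1) had overlapping groups. In the controls both Ptgds and Foxj1 were highest in ctrl 5 and lowest in ctrl 10. Epididymis markers summed to 1.0 and 1.56 TPM in cold 12 and cold 16, while Ptgds was near 44 TPM there. Of that list Lcn9 and Cst11 were at 0 in all 6 libraries. Lcn12 had 1, 0 and 0 counts in the controls and 12, 3 and 6 in cold 7, cold 12 and cold 16. Adam7 had 11, 0 and 0 against 677, 1 and 34 counts, and Rnase10 15, 8 and 2 against 2, 9 and 3. In ctrl 10, where seminal vesicle markers were abundant, Ptgds was at its lowest. The part of epithelial, ciliated, epididymal or seminal vesicle cells in the Ptgds difference was not tested.

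**Figure D3:**
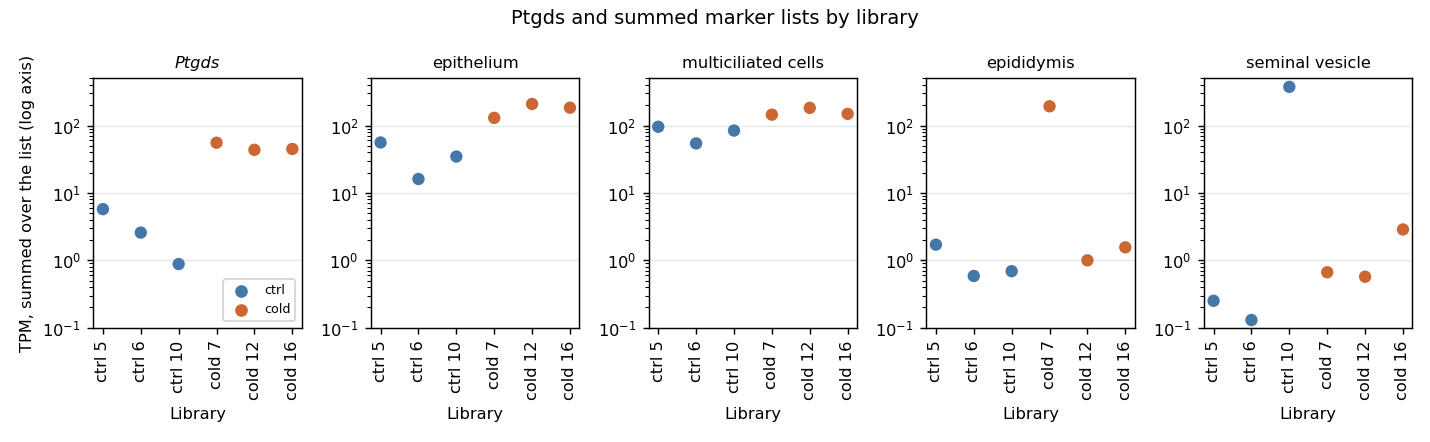
TPM of Ptgds and summed TPM of 4 marker lists in each library (log axis, the same range in each panel; blue ctrl, orange cold). Ptgds, epithelium and multiciliated cells are higher in all 3 cold libraries, whereas the epididymis sum is high in cold 7 only and the seminal vesicle sum in ctrl 10 only.

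Likeness to Ptgds was compared over 11166 tested genes averaging 5 CPM or more, with predicted, clone and microRNA names left out. Of these, the genes whose log2 CPM followed Ptgds most closely over the 6 libraries were Gsta4, a glutathione transferase (Pearson r 0.995), Prom2, a glycoprotein of epithelial protrusions (0.993), and Cfap298, a cilium assembly gene (0.984). These are the highest of many values over 6 libraries, and both groups enter them. Their sizes differed widely. Prom2 went from 3.76, 0.805 and 0.154 CPM to 40.5, 60.8 and 50.1 CPM, whereas Gsta4 went only from 24.7, 23.8 and 21.8 CPM to 30.4, 29.3 and 30.2 CPM.

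The other prostaglandin D synthase, Hpgds (chromosome 6, 65117293 to 65144908, minus strand), is a glutathione-dependent enzyme of mast cells, macrophages and some lymphocytes, unrelated in sequence to Ptgds. It stood at 7.06, 8.14 and 5.44 CPM in ctrl 5, ctrl 6 and ctrl 10 and 7.44, 10.2 and 7.58 CPM in cold 7, cold 12 and cold 16, with overlapping groups (log2 fold change 0.29, SE 0.20). Mast cell markers, 8 genes that summed to 39.9 to 68.1 TPM in controls and 35.5 to 62.8 TPM in the cold, overlapped too. That sum joined genes that went apart, with Hdc at a log2 fold change of 2.26 and 4 of the 6 tested markers negative. Ptgds took 62.7, 39.2 and 27.2% of the summed TPM of both synthases in the controls and 94.5, 90.8 and 93.8% in the cold. The balance of the pair thus differed even among controls, where Ptgds was above Hpgds in ctrl 5 alone. Both receptors for prostaglandin D2 were scarce in all libraries. Ptgdr had 11, 6 and 8 counts in the controls and 2, 7 and 3 in the cold. Ptgdr2 had 0, 2 and 1 counts against 0, 3 and 1, where a count of 0 has an upper Poisson limit of 3.69 counts. Neither passed the filter, so this depth cannot show a change in them.

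The cyclooxygenases were unequal. Ptgs1 (chromosome 2, 36230426 to 36252272, plus strand), the constitutive enzyme, stood at 23.6, 18.4 and 22.8 CPM in ctrl 5, ctrl 6 and ctrl 10 and 27.4, 20.1 and 20.7 CPM in cold 7, cold 12 and cold 16 (log2 fold change 0.07, SE 0.15). Ptgs2 (chromosome 1, 150100031 to 150108227, plus strand), the enzyme induced by inflammation and growth signals, had 35, 11 and 26 counts in the controls and 25, 17 and 18 in the cold. In CPM this was 1.45, 0.492 and 1.33 against 1.09, 0.669 and 0.628 (log2 fold change -0.46, SE 0.46). Groups overlapped in both genes. The widest gap in Ptgs2 was between 2 controls: its exact 95% Poisson interval was 24.4 to 48.7 counts in ctrl 5 and 5.49 to 19.7 counts in ctrl 6. Ptgs2 made up 1.4 to 3.07% of cyclooxygenase TPM over the 6 libraries, and 1.96 to 4.43% over coding transcripts alone.

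The gene most like Ptgs2 over the libraries was Socs3, a feedback inhibitor of cytokine signalling (Pearson r 0.998 over 6 libraries). Socs3 was at 17.2, 8.94 and 15.7 CPM in ctrl 5, ctrl 6 and ctrl 10 and at 14.2, 10.7 and 10.4 CPM in cold 7, cold 12 and cold 16. Ctrl 6 was lowest in both genes and ctrl 5 highest. For Ptgs1 the closest was Col14a1, a collagen of fibrous tissue (0.991), highest in cold 7 as Ptgs1 was.

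The 3 prostaglandin E synthases differed little between the groups. Ptges (chromosome 2, 30889471 to 30929863, minus strand), the inducible microsomal enzyme, had 82.4, 56.4 and 84.0 CPM in ctrl 5, ctrl 6 and ctrl 10 and 95.8, 81.8 and 105 CPM in cold 7, cold 12 and cold 16 (log2 fold change 0.34, SE 0.17). Only cold 12 lay within the control range. Ptges2 (chromosome 2, 32395896 to 32405772, plus strand), a membrane-associated enzyme, lay between 31.3 and 36.6 CPM in all 6 libraries (0.07, SE 0.09). Ptges3 (chromosome 10, 128058954 to 128077272, plus strand), the cytosolic enzyme also known as the HSP90 cochaperone p23, lay between 78.0 and 93.7 CPM (0.15, SE 0.08). Ptges took 30.2 to 42.5% of the summed TPM of these 3 genes, and 22.3 to 33.3% of their coding TPM, with overlapping groups on both.

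Prostacyclin synthase, Ptgis (chromosome 2, 167191805 to 167240604, minus strand), an enzyme of vessel walls and stromal cells, varied widely between mice within both groups. It had 50.0, 27.0 and 52.8 CPM in ctrl 5, ctrl 6 and ctrl 10 and 67.2, 25.7 and 24.5 CPM in cold 7, cold 12 and cold 16. High and low libraries were found in both groups (log2 fold change -0.15, SE 0.50, and -0.79, SE 0.31, without cold 7). Mesothelial markers, of the cell layer that covers the fat pad, were also high in ctrl 5, ctrl 10 and cold 7 (149, 171 and 150 TPM summed over 6 genes) and low in ctrl 6, cold 12 and cold 16 (69.7, 46.5 and 46.3 TPM). Of these 6 markers none passed the test (0 by DESeq2 and 0 at an unadjusted p under 0.05). The sum of 7 stromal markers was also higher in ctrl 5, ctrl 10 and cold 7 (1462.6, 1356.9 and 1613 TPM). In ctrl 6, cold 12 and cold 16 it was 1031.1, 1279.2 and 1090 TPM, and none of the 7 passed either. Not every stromal marker was split this way. Dcn, most of the sum, was at 767 TPM in ctrl 10 and 771 TPM in cold 12. Ly6a was at 299 TPM in ctrl 5 and 307 TPM in cold 12. Col1a1 was split (120, 132 and 182 TPM in ctrl 5, ctrl 10 and cold 7, against 105, 86.8 and 90.3 TPM). Genes most like Ptgis were Rcn3 (Pearson r 0.998), Pdlim4 (0.995) and Fn1, fibronectin (0.995), over 6 libraries. Fn1 ran from 199 to 241 CPM in the 3 low libraries and from 485 to 612 CPM in the 3 high ones. The part of mesothelial or stromal cells in the spread of Ptgis was not tested.

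Thromboxane synthase, Tbxas1 (chromosome 6, 38875404 to 39084585, plus strand), is an enzyme of platelets and macrophages. It had 11.1, 7.69 and 12.1 CPM in ctrl 5, ctrl 6 and ctrl 10 and 20.3, 12.1 and 8.45 CPM in cold 7, cold 12 and cold 16 (log2 fold change 0.40, SE 0.34). Cold 7 alone stood above the controls, and the difference was -0.01 (SE 0.24) without it. In TPM, Tbxas1 was 8.36, 6.35 and 7.83 in the controls and 14, 8.22 and 4.46 in the cold, so that cold 16 was lowest in TPM and ctrl 6 in CPM. The sums of 8 macrophage markers (1065.8 TPM in cold 7, 607 in cold 16) and of 5 platelet markers (227 and 105) were highest in cold 7 and lowest in cold 16. In ctrl 5 the macrophage sum was nearly as high, at 1027.8 TPM. Of its 3 most abundant markers, C1qa was highest in cold 7 (248 TPM, against 215 in ctrl 5). Lyz2 (593 TPM, against 560 in cold 7) and Csf1r (66.4, against 64.3) were highest in ctrl 5. Most of the platelet sum was Pf4, at 215 TPM in cold 7 and 98.6 TPM in cold 16. Itga2b was also highest in cold 7 (7.35 TPM) and lowest in cold 16 (3.83 TPM). Ppbp was highest in ctrl 10 (7.0 TPM) and lowest in cold 12 (1.6 TPM). None of the 8 macrophage and 3 tested platelet markers passed the test (0 by DESeq2 and 0 at an unadjusted p under 0.05), and their part in the spread of Tbxas1 was not tested.

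**Figure D4:**
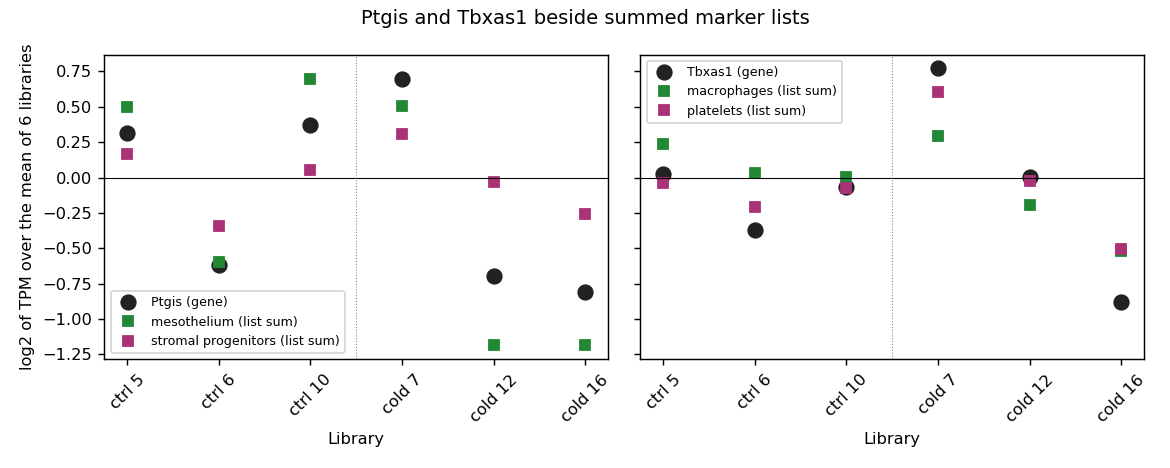
Each library's TPM relative to the mean of 6 libraries (log2), for Ptgis beside summed mesothelial and stromal markers (left) and Tbxas1 beside summed macrophage and platelet markers (right); the dotted line parts ctrl from cold. Ptgis, the mesothelial sum and the stromal sum are all above the mean in ctrl 5, ctrl 10 and cold 7 and below it in the others.

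Hpgd (chromosome 8, 56294585 to 56321043, plus strand), the hydroxyprostaglandin dehydrogenase that begins the inactivation of prostaglandins E2 and F2alpha, had 65.3, 81.9 and 70.0 CPM in ctrl 5, ctrl 6 and ctrl 10. In cold 7, cold 12 and cold 16 it had 78.6, 93.9 and 82.3 CPM (log2 fold change 0.23, SE 0.11). Ctrl 6 lay inside the cold range, and the groups overlapped. Of the 10 members, 8 had positive and 2 negative log2 fold changes, where 8490 of all 17852 genes tested were positive. The members' median was 0.19 against -0.01 over all genes. Nothing is read from these values, because the contrast was known when the genes were listed.

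The members also differed in how much of their message was counted on transcripts annotated as keeping an intron. For Tbxas1 the retained-intron transcripts took 36.5 to 60.4% of counts, and coding transcripts 39.2 to 62.9%, with cold 7 and cold 16 at the opposite ends. For Ptges2 a single retained-intron transcript took 27.7 to 31.4%, with means of 29.6% ± 1.85 in controls and 29.4% ± 1.23 in the cold (SD, n = 3 each). Hpgds had 13.5 to 17.1% on such transcripts, and Ptgs1 4.02 to 6.7%. In Ptges3 and Ptgis the share stayed at or under 0.46%. Short transcripts weigh more in TPM than in counts, and long ones less. The retained-intron transcripts of Tbxas1, mainly 1 of 4562 bases against 1990 for the main coding one, took 18.9 to 38% of TPM. The retained-intron transcript of Ptges2, of 765 bases against 4978 for the coding one, took 71.9 to 78.7% of the gene's TPM, and coding Ptges2 lay between 6.86 and 7.61 TPM in all 6 libraries. Noncoding processed transcripts took 8.26 to 13.5% of the counts of Ptges and 39.2 to 52.4% of its TPM, which left coding Ptges at 20.8 to 38.6 TPM. Coding transcripts took 65.7 to 71.3% of TPM for Ptgs1 and 48.8 to 74.5% for Tbxas1. For Ptgds they took 83.5 to 96.5%, and its coding TPM was 4.80, 2.30 and 0.803 in ctrl 5, ctrl 6 and ctrl 10 and 53.7, 40.6 and 42.3 in cold 7, cold 12 and cold 16.

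The rest of the pathway was read from 39 genes in 5 lists, which the members' rule did not name. Of these, 31 were tested, 1 rose and 1 fell in the cold, where 2.32% of all genes rose and 0.566% fell. Their median log2 fold change was 0.01. Both calls lay among the 9 tested genes of arachidonate release (median -0.02).

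Pla2g5, a secreted phospholipase A2, had 12, 5 and 3 counts in ctrl 5, ctrl 6 and ctrl 10 and 30, 86 and 70 counts in cold 7, cold 12 and cold 16. Its CPM was 0.291 ± 0.180 in controls and 2.38 ± 1.04 in the cold (SD, n = 3 each), and edgeR's quasi-likelihood test gave a log2 difference of 2.98 (SE 0.51, Benjamini-Hochberg adjusted p = 0.033). All cold libraries were above all controls. Among controls ctrl 5 was highest, and among cold libraries cold 7 was lowest, as in the summed epithelial markers, whose part in the result was not tested. Pla2g2d, a secreted phospholipase A2 of immune cells, stood at 18.8, 24.9 and 15 CPM in the controls and 8.23, 9.79 and 9.78 CPM in the cold. It fell by 1.08 on the log2 scale (SE 0.19, adjusted p = 0.033 by edgeR), with no overlap between groups. Both calls were lost without ctrl 6 (adjusted p = 0.122 for Pla2g5 and 0.0995 for Pla2g2d), without ctrl 10 (0.127 and 0.0947), without cold 12 (0.132 and 0.135) and without cold 16 (0.0749 and 0.0811). Over those alternatives the log2 fold change stayed between 2.66 and 2.96 for Pla2g5 and between -1.23 and -0.86 for Pla2g2d. The Pla2g5 call was also lost with the transcript length offset (adjusted p = 0.0627 by edgeR), and the Pla2g2d call without ctrl 5 and cold 7 together (0.0613).

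The most abundant genes of arachidonate release did not pass the test. Pla2g16, the phospholipase known as AdPLA and the main such enzyme of white fat cells, was at 756 ± 15.6 CPM in controls and 760 ± 36.4 CPM in the cold (SD, n = 3 each; log2 fold change 0.01, SE 0.08). Mgll, the monoacylglycerol lipase that frees arachidonate from an endocannabinoid, was at 2074.6 ± 283 and 2139.8 ± 79.2 CPM (0.04, SE 0.11; SD, n = 3 each). The cytosolic phospholipase Pla2g4a, the usual supplier of cyclooxygenases, was far lower at 3.15 TPM over all 6 libraries, against 474 TPM for Pla2g16.

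Among 9 prostanoid receptors 7 were tested, and edgeR called none of them (0 by DESeq2, 0 at an unadjusted p under 0.05), with a median of -0.05. Ptger3, the EP3 receptor that inhibits adenylyl cyclase, took 56.1 to 74.5% of the summed TPM of the 9 receptors. It had 74.0, 45.3 and 40.0 CPM in ctrl 5, ctrl 6 and ctrl 10 and 51.2, 49.2 and 68.9 CPM in cold 7, cold 12 and cold 16, with overlapping groups (0.09, SE 0.26). The receptors EP4 and EP2, which raise cAMP, were at -0.35 (Ptger4, SE 0.16) and -0.25 (Ptger2, SE 0.18). The prostacyclin receptor Ptgir was at -0.17 (SE 0.19) and the thromboxane receptor Tbxa2r at -0.05 (SE 0.23).

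Of 6 further synthases and reductases, 2 averaged more TPM than any member. Fam213b, the prostamide and prostaglandin F synthase now called Prxl2b, averaged 214 TPM over the 6 libraries, and Akr1b3, an aldose reductase with prostaglandin F synthase activity, 111 TPM. The carbonyl reductase Cbr1 averaged 74.8 TPM and Akr1b8 17.9 TPM, below Hpgd at 77.2 TPM, and Akr1b7 and Akr1c18 averaged under 1 TPM. None of the 4 tested genes of this list was called by edgeR (0 by DESeq2, 0 at an unadjusted p under 0.05), and their log2 fold changes lay between -0.01 and 0.06. Of 5 transport and further breakdown genes edgeR called none (0 by DESeq2, 1 at an unadjusted p under 0.05). The exporter Abcc4 had 16.9, 13.2 and 13.1 CPM in the controls and 18.2, 20.9 and 18.3 CPM in the cold (0.40, SE 0.13, adjusted p = 0.133 by edgeR). Its groups did not overlap in CPM, and the value was 0.09 with the transcript length offset.

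In the parallel branch of lipoxygenases and leukotrienes, 6 of 9 genes were tested, and edgeR called none (1 by DESeq2, 1 at an unadjusted p under 0.05). That 1 was Alox12, a lipoxygenase of platelets and epithelia, at 6.98, 5.01 and 3.85 CPM in ctrl 5, ctrl 6 and ctrl 10 and 9.80, 23.7 and 23.8 CPM in cold 7, cold 12 and cold 16 (1.85, SE 0.40, adjusted p = 0.0698 by edgeR). Cold 7 was the lowest cold library here too, and without it Alox12 passed (2.16, adjusted p = 0.00463 by edgeR). The leukotriene C4 synthase Ltc4s, at 177 TPM over all libraries, was at -0.07 (SE 0.11), and Alox5, which starts leukotriene synthesis, at 0.40 (SE 0.30).

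**Figure D5:**
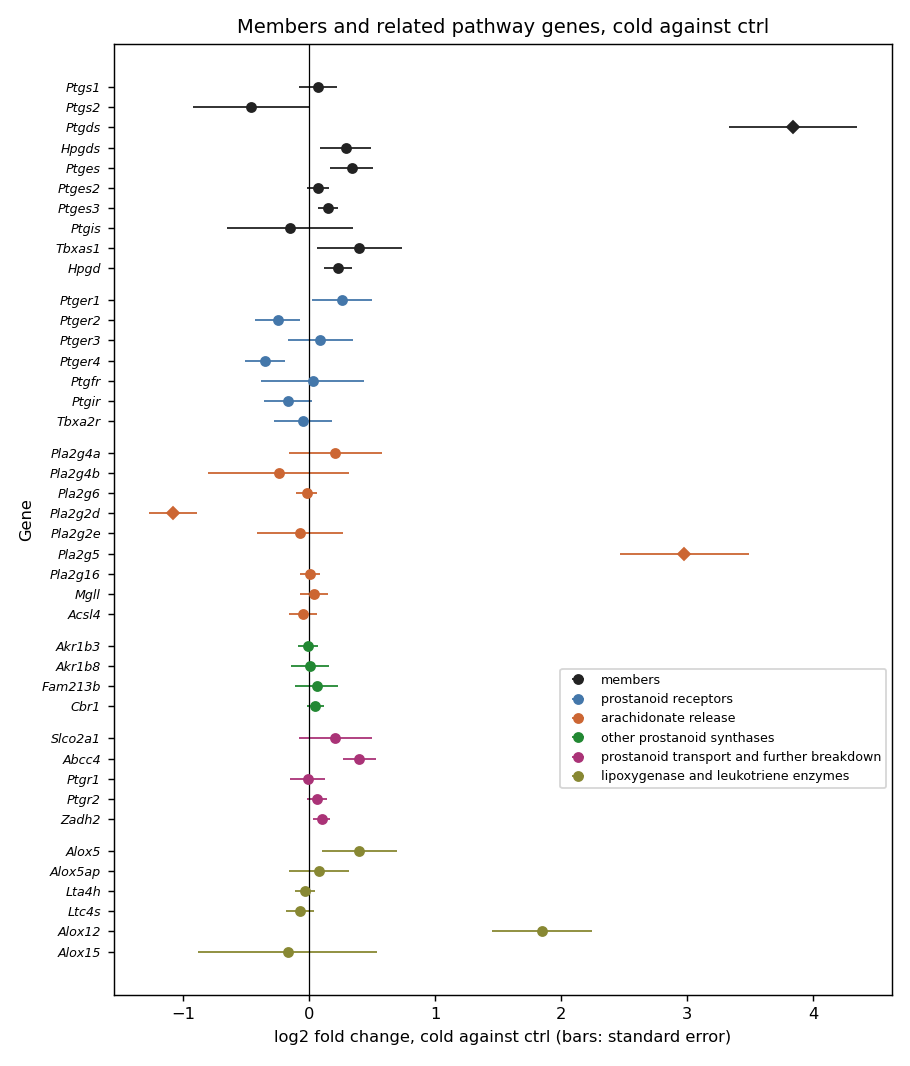
log2 fold change, cold against ctrl, with its standard error (bars) for the 10 members and 31 tested pathway genes, coloured by role; diamonds are genes past an adjusted p of 0.05 over all genes. Ptgds at 3.84, Pla2g5 at 2.98, Alox12 at 1.85 and Pla2g2d at -1.08 lie apart from the rest.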

How the data were processed

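Per the labels' protocols, RNA of whole frozen fat pads went into strand-specific paired-end libraries, and the submitters' processing notes name build GRCm38 and the tools bcl2fastq, cutadapt and Salmon. The sources used here give no versions, settings or annotation. Deposited by the authors, per the file headers, were estimated counts, TPM and effective lengths (other values, in bases) for 140658 transcripts per library.

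Transcripts were joined to GENCODE M21 (140137 matched; the other 521, with 0.124 to 0.394% of counts, were left out), and estimated counts were summed per gene and rounded. Genes passing filterByExpr (minimum count 10, minimum total 15) were scaled by TMM and tested in R 4.3.3 with edgeR 4.0.16 (robust glmQLFit and glmQLFTest, two-sided, Benjamini-Hochberg over all 17852 genes, threshold 0.05). SE comes from the F statistic. CPM uses TMM-scaled libraries; deposited TPM was only described. An exact permutation test of 3 against 3 cannot go below 0.10. No replicate pair agreed within sampling noise (ratio of chi-square to degrees of freedom at least 11.6). The steps were tested on simulated data.

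Members, lists and alternatives were chosen with earlier results of these data known. Any member or pathway gene could be named, with each pathway gene called; of each marker list the 3 highest by mean TPM and those called; and for each member the 3 genes most correlated with it (log2 CPM, prior 0.5). Epcam, Hdc, Plin1, Lcn9, Lcn12, Rnase10 and Cst11 fall outside this rule and were named after their values were seen. Correlations left out genes averaging under 5 CPM and those with predicted, clone or microRNA names. Alternatives were RLE factors, no filter, DESeq2 1.42.0, a transcript length offset, each library left out, and ctrl 5 with cold 7 left out.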

Additional observations from a re-analysis of the deposited data

How the results depend on the processing

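Over all genes 415 rose and 101 fell. With no low-count filter 696 rose and 228 fell, with DESeq2 1036 and 304, with the transcript length offset 341 and 53, and without ctrl 5 and cold 7 together 1145 and 85. With 1 library left out, 0 to 929 rose and 0 to 161 fell; edgeR called none without ctrl 6, ctrl 10 or cold 12 (1981, 1854 and 1627 higher and 1090, 981 and 919 lower at an unadjusted p under 0.05). Related pathway genes that rose numbered 1; they were 2 by DESeq2 (Alox12 and Pla2g5), 0 with the length offset (2 at an unadjusted p under 0.05), 3 without ctrl 5 and cold 7 (Abcc4, Alox12 and Pla2g5) and 0 to 2 with 1 library left out. The 1 that fell became 0 without ctrl 5 and cold 7 (2 at an unadjusted p under 0.05) and 0 to 1 with 1 library left out. Ptgds lay between 3.45 and 4.69 over the 11 alternatives and passed in 6 of them (adjusted p by edgeR 0.0825 with no filter). The other 9 members passed in none, and all their 99 values moved by less than 1 SD, 7 of them across 0. Over coding transcripts alone, an alternative added after seeing the data, control TPM moved by over 1 SD for Ptges, Ptges2, Ptgs1 and Tbxas1 and by less for the other 6 members. Leaving libraries out also leaves fewer samples, and the cause of these changes was not tested. No paired analysis was possible because the mouse numbers differ between the groups. Depth limits Ptgs2, Ptgdr and Ptgdr2 most, and uncertainty in sharing reads among transcripts is not in the errors.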

Other observations

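Hdc, the histidine decarboxylase that makes histamine and stood in the mast cell list, had the largest log2 difference of the 6 tested genes of that list. It was at 3.22, 1.80 and 1.25 TPM in ctrl 5, ctrl 6 and ctrl 10 and at 7.19, 17.2 and 13.1 TPM in cold 7, cold 12 and cold 16 (log2 fold change 2.26, SE 0.48, adjusted p = 0.0679 by edgeR). The mast cell tryptase Tpsb2 was at 22.0, 10.5 and 13.0 TPM against 19.0, 9.08 and 3.27 TPM, and the chymase Mcpt4 at 13.7, 8.25 and 9.06 TPM against 14, 6.98 and 2.18 TPM. Of the 6 tested mast cell markers none passed by edgeR (1 by DESeq2, 1 at an unadjusted p under 0.05), and 4 of the 6 were negative. Kit, the stem cell factor receptor, was at 11, 10.9 and 5.69 TPM against 6.52, 11.3 and 14 TPM (log2 fold change 0.06). In the cold libraries Hdc and Kit were lowest in cold 7, where Tpsb2 and Mcpt4 were highest.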
